A study of Arabidopsis thaliana with 16 samples.

Results

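Seedlings lacking ARID1 and ARID4 (arid14) were compared directly with seedlings lacking RXT3 (rxt3), gene by gene, in *Arabidopsis thaliana*. The comparison takes the 2 arid14 and the 2 rxt3 libraries, 4 of the 16 in the series, and all 32548 genes of the deposited table, of which 20846 passed the filter on low values. The series covers wild type and 7 mutants of genes linked to RPD3-type histone deacetylase complexes, with 2 libraries each. The arid14 plants carried the genotype arid1(-/-);arid4(-/-), the rxt3 plants rxt3(-/-), and the wild type was Col-0, which serves here as the reference level. No other allele, transgene or treatment is given for these groups, and the mutant alleles are not named. All plants were seedlings 14 days old, raised on Murashige and Skoog plates at 23 °C during 16 h of light and 22 °C during 8 h of darkness. Their total RNA was made into single-end libraries with a read length of 50 bp. Whether replicate libraries were grown or harvested apart is not stated, and p-values here therefore reflect only how the 16 libraries of the series varied.

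RPD3-type histone deacetylases remove acetyl groups from histone tails, and in Arabidopsis HDA6 and HDA19 are the best studied of them. They act inside large complexes with SIN3-like scaffolds, MSI-type WD40 proteins and accessory subunits, and loss of HDA19 or its partners is known to alter flowering, stress and defence responses. The protein RXT3 was first described in yeast as a subunit of the Rpd3 complex, and its plant counterpart is also known as HDC1. ARID proteins carry a DNA-binding domain that favours AT-rich sequence, and ARID1 is known from Arabidopsis pollen as a partner of a histone deacetylase. The comparison asks in which genes RNA levels differ between loss of the ARID proteins and loss of RXT3.

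The 4 libraries held between 19408301 and 19455916 reads assigned to genes, and the wild-type libraries held 19493628 and 19522197, so depth was nearly equal. Values below are normalised read counts. Taken over the total of a library, 1 read was worth between 0.972 and 0.999 in these 6 libraries, and single genes can depart from this. These values compare 1 gene across libraries, not different genes, since they are not divided by gene length. Replicate libraries of 1 genotype differed by a median of 0.118 (arid14), 0.122 (rxt3) and 0.112 (wild type) on the log2 scale. Differences are given as log2(value + 1) of arid14 minus rxt3, which understates the change of genes with low values. A gene was called at an adjusted p under 0.05 in limma. The main fit took all 16 libraries, so SE and p-values rest on a spread shared by all genotypes, not on the 4 libraries alone. The RNA came from seedlings in bulk, so fewer cells of a type and less RNA per cell cannot be told apart. In rxt3 library 1, 9 seed storage and oleosin genes (CRA1, CRU2, CRU3, OLEO1, OLEO2 and SESA1 to SESA4) stood between 10.8 and 105.7. The same 9 genes stood between 0 and 6.72 in rxt3 library 2, between 0 and 1.99 in arid14 and between 0 and 5.97 in wild type. Their part in the results below was not tested. Counts of list members that moved by over 1.5 times with any 1 of the 4 libraries left out are given beside them. Some genes stand on several lists, among them CZF1, PAD3, WRKY53, DIN2 and SEN1, so the counts of different lists are not independent.

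The mutated genes were examined first. RXT3, listed in the reference as AT5G08450 with the synonyms RXT3-like and HDC1 (chr5:2727613-2732925, minus strand, TAIR10.1), had 1698 and 1666 in arid14, 543 and 517 in rxt3 and 1759 and 1826 in wild type. Its RNA was thus lower in both rxt3 libraries than in any other (log2 difference 1.66 ± 0.05, SE, limma, adjusted p = 5.2e-10). The rxt3 libraries kept 29.6% of the wild-type level. ARID1 (AT2G46040, chr2:18935236-18938447, minus strand) had 50.2 and 51.8 in arid14, 123 and 137 in rxt3 and 106 and 98.9 in wild type. Here the arid14 libraries were the low ones, at 49.7% of wild type, and the groups did not overlap (log2 difference -1.34 ± 0.17, SE, limma, adjusted p = 4.6e-05).

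The reference gives no locus the name ARID4. Of its 10 genes whose product is described with an ARID/BRIGHT domain, 1 other than ARID1 was lower in arid14, AT1G76510 (chr1:28708339-28712968), which is named here because of its values. Its libraries read 86.6 and 80.6 in arid14, 411 and 413 in rxt3 and 349 and 348 in wild type. Both arid14 libraries lay below all the others (log2 difference -2.29 ± 0.08, SE, limma, adjusted p = 5.2e-10). The log2 difference from wild type was -2.05 (limma, adjusted p = 8e-10). Which locus the label arid4 refers to is not given in the sources used here. Among the tested neighbours of ARID1, BRM, a SWI/SNF chromatin remodelling ATPase, was higher in arid14 by 0.36 and AT2G46060 lower by 0.43 (limma, adjusted p = 8.7e-05 and 0.00048). BRM stood at 2491 and 2453 in arid14, 1975 and 1875 in rxt3 and 2333 and 2470 in wild type. Its arid14 libraries thus overlapped wild type, and UBC6, which lies between BRM and ARID1, was not called. In all, 5 neighbours of ARID1 and RXT3 were not called, where 42.5% of all tested genes were called.

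Across the other subunits of the deacetylase complexes, differences were small. On the list of subunits 31% were called, RXT3 and ARID1 among them, against 42.5% of all tested genes. Over all tested genes 21.9% were higher in arid14 and 20.6% lower. Of 29 tested genes on that list, which includes RXT3 and ARID1, 6 were called higher and 3 lower in arid14, with a median of -0.02 against 0.007 over all genes, and 3 were higher without either arid14 library or without rxt3 library 2. The deacetylase HDA6 stood at 487 and 430 in arid14 and 461 and 481 in rxt3, and HDA19, listed as HD1, at 2187 and 2072 in arid14 and 2294 and 2254 in rxt3. Neither was called, and the libraries of the 2 mutants overlapped for HDA6 and lay close together for HDA19. The methyl-CpG-binding gene MBD02 was higher in arid14, at 553 and 528 in arid14 and 363 and 376 in rxt3 (log2 difference 0.55 ± 0.07, SE, limma, adjusted p = 3.8e-05). The plant-specific deacetylase HD2C was lower, at 743 and 737 in arid14 and 1028 and 1015 in rxt3 (log2 difference -0.46 ± 0.08, SE, limma, adjusted p = 0.00042).

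Over the whole transcriptome, 8854 of 20846 tested genes were called, which is 42.5%. They divided into 4563 higher in arid14 (21.9% of tested genes) and 4291 lower (20.6%). Most differences were small, with a median size of 0.47 among called genes, and 14678 tested genes (70.4%) had libraries that did not overlap between the mutants. With a log2 difference of at least 1 as a further condition, 1394 genes were called (6.69%), 565 higher (2.71%) and 829 lower (3.98%). At a size of at least 3 there were 26 genes higher and 27 lower, and 5 genes were lower by at least 5. Against wild type in the same fit, 6735 genes were called in arid14 (32.3%; 3143 higher, 3592 lower) and 9841 in rxt3 (47.2%; 4644 higher, 5197 lower). With the size condition these became 709 genes in arid14 (3.4%; 1.79% higher, 1.61% lower) and 1553 in rxt3 (7.45%; 5.08% higher, 2.37% lower). These comparisons share libraries with the direct one and are given only to place each mutant's level.

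**Figure D1:**
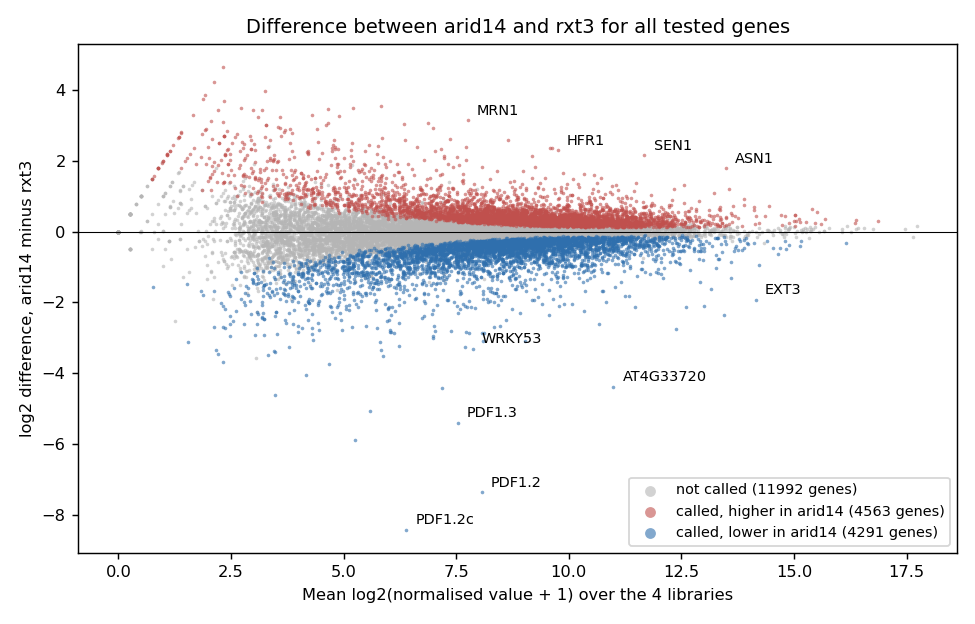
Each point is 1 of 20846 tested genes, with its mean log2(normalised value + 1) over the 4 libraries on the x axis and the log2 difference, arid14 minus rxt3, on the y axis. Red genes were called higher in arid14 (4563), blue genes lower (4291) and grey genes were not called. The defensin genes PDF1.2c (-8.41), PDF1.2 (-7.35) and PDF1.2b (-5.89, not labelled) lie farthest below 0.

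The lowest genes in arid14 relative to rxt3 were plant defensins, small cysteine-rich antimicrobial peptides whose PDF1.2 members are standard reporters of joint jasmonate and ethylene signalling. PDF1.2 had 11.7 and 33.9 in arid14, 4711 and 2502 in rxt3 and 71.6 and 48 in wild type. PDF1.2c had 1.95 and 5.98 in arid14, 2475 and 959.8 in rxt3 and 23.9 and 17 in wild type. In both genes every rxt3 library lay above every wild-type library, and every wild-type library above every arid14 library. The log2 differences between the mutants were -7.35 ± 0.62 for PDF1.2 and -8.41 ± 0.61 for PDF1.2c (SE, limma, adjusted p = 1.3e-06 and 4.2e-07). The rxt3 libraries of PDF1.2c stood well apart from each other, and leaving out 1 library at a time moved its difference between -7.73 and -9.09. The same exercise moved PDF1.2 between -6.62 and -8.07. PDF1.2b followed, with 3.94 and 3.98 in arid14, 434 and 198 in rxt3 and 16.9 and 11 in wild type (log2 difference -5.89 ± 0.56, SE, limma, adjusted p = 3.8e-06). PDF1.3 had 36.5 and 20.9 in arid14, 1796 and 797 in rxt3 and 68.6 and 39 in wild type (log2 difference -5.39 ± 0.50, SE, limma, adjusted p = 2.9e-06), between -4.80 and -5.97 with 1 rxt3 library left out. PDF1.4, another member of the family, went the other way, at 24.6 and 30.9 in arid14 and 10.7 and 17.8 in rxt3, a call (limma, adjusted p = 0.025) that was lost without rxt3 library 1 (adjusted p = 0.22) or arid14 library 2 (0.14). The genes lie in 2 pairs of neighbours, PDF1.2 with PDF1.2c on chromosome 5 and PDF1.2b with PDF1.3 on chromosome 2. Their coding sequences are alike, and how reads of 50 bp that match several copies were assigned is not stated.

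The 250 bases before the annotated start of each of the 4 genes are shown because they moved together and by the largest amounts. They were read from TAIR10.1 and searched on both strands for the GCC-box, GCCGCC, which is bound by ethylene response factors such as ERF1 and ORA59. Capitals mark a match.
PDF1.2 (chr5:17907639-17907888, minus strand): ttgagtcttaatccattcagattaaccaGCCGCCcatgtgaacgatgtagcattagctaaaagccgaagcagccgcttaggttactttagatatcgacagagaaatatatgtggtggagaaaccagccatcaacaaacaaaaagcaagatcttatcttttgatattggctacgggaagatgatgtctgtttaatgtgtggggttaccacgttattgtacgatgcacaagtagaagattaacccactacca
PDF1.2c (chr5:17909508-17909757, minus strand): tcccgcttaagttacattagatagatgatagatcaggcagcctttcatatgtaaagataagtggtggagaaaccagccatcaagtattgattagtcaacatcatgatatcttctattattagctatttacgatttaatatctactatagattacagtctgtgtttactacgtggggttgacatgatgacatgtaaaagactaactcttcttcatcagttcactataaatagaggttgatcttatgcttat
PDF1.2b (chr2:11088873-11089122, plus strand): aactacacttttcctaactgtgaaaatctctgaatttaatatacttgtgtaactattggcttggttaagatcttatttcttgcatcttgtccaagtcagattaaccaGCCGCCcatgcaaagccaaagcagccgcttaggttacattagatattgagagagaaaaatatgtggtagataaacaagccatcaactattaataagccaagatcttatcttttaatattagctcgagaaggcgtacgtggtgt
PDF1.3 (chr2:11087030-11087279, plus strand): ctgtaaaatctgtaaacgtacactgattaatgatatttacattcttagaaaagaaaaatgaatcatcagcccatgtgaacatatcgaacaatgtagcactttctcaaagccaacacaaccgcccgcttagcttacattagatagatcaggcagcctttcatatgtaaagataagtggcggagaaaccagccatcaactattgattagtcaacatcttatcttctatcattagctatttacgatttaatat
The box was present once in PDF1.2, starting 222 bases before the gene, and once in PDF1.2b, starting 143 bases before it, and the windows of PDF1.2c and PDF1.3 held no match. Over all tested genes 1.96% of such windows held a GCC-box, against 3.62% (30 of 829) of the genes called lower in arid14 by at least 1. Among the 565 called higher by at least 1 the share was 1.42%.

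On the whole ethylene and defensin list, the defensins above included, 13 of 18 tested members were lower in arid14 and 3 higher. The median was -1.27, and over all tested genes 20.6% were lower and 21.9% higher. Without rxt3 library 1 or without arid14 library 2 the 3 higher were no longer called. ERF1, a transcription factor that activates defensin genes, had 18.7 and 24.9 in arid14, 65 and 86.9 in rxt3 and 14.9 and 15 in wild type (log2 difference -1.76 ± 0.34, SE, limma, adjusted p = 0.00097). ORA59, which acts with it downstream of jasmonate and ethylene, had 139.9 and 108 in arid14, 237 and 272 in rxt3 and 86.5 and 68.9 in wild type (log2 difference -1.04 ± 0.16, SE, limma, adjusted p = 0.0002). In both genes the arid14 libraries lay between wild type and rxt3. The repressor ERF4 stood at 772 and 800.3 in arid14 and 1937 and 2251 in rxt3 (log2 difference -1.41 ± 0.12, SE, limma, adjusted p = 1.2e-06). The chitin-binding protein gene PR4 was among the 5 genes lower in arid14 by the most in mean value, at 4820 and 5026 in arid14, 26080 and 23801 in rxt3 and 3938 and 2561 in wild type (log2 difference -2.34 ± 0.31, SE, limma, adjusted p = 5e-05). The basic chitinase gene HCHIB was lower too, at 891 and 907 in arid14, 3524 and 3698 in rxt3 and 606 and 502 in wild type (log2 difference -2.0 ± 0.14, SE, limma, adjusted p = 2.6e-07). ACS6, a rate-limiting enzyme of ethylene synthesis, was placed differently: it stood at 375 and 457 in arid14, 1302 and 1803 in rxt3 and 1114 and 1380 in wild type, so that rxt3 lay near wild type and arid14 below both (log2 difference -1.89 ± 0.19, SE, limma, adjusted p = 5.8e-06). The ethylene receptor gene ERS1 and the F-box gene EBF2 were slightly higher in arid14, by 0.23 and 0.17, and both calls were lost without rxt3 library 1 (limma, adjusted p = 0.11 and 0.18) and without arid14 library 2 (0.051 and 0.22), EBF2 also without either other library (0.054 and 0.069).

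**Figure D2:**
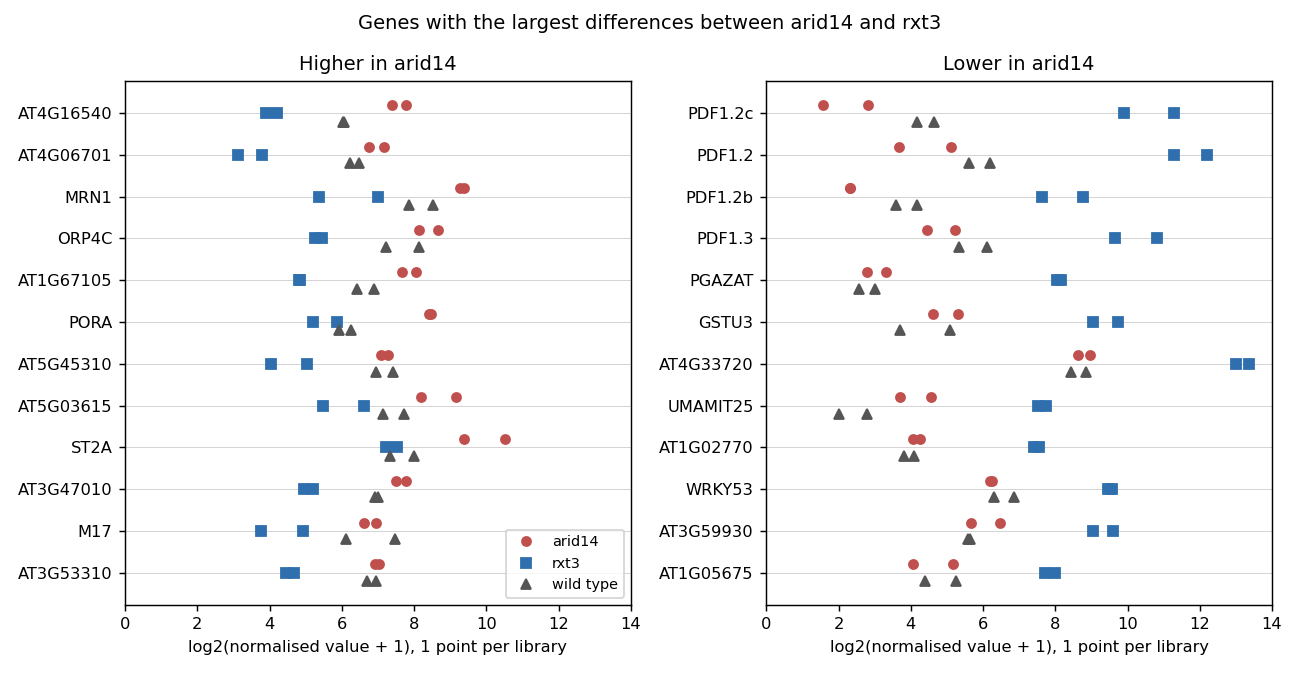
In each direction the panels show the 12 called genes with the largest log2 differences among those with a mean value of at least 100 in the higher mutant and no overlap between the mutants, with 1 point per library and log2(normalised value + 1) on the x axis, circles for arid14, squares for rxt3 and triangles for wild type. In the right panel PDF1.2 runs from 11.7 and 33.9 in arid14 to 4711 and 2502 in rxt3, and in the left panel PORA stands at 356 and 340.4 in arid14 against 35.9 and 57.3 in rxt3.

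Genes of the touch and wound response had the largest share of members lower in arid14 among the 29 lists. This list gathers calmodulin-like proteins, zinc-finger factors of the ZAT type, WRKY factors and ERF factors that are induced within minutes of mechanical or defence stimuli. Of 23 tested members 20 were lower in arid14 and 1 higher, with a median of -1.56, where 20.6% of all tested genes were lower. Leaving out 1 library gave between 16 and 19 lower. Relative to wild type, 16 members were higher and 1 lower in rxt3, and 3 were higher and 13 lower in arid14. The shares over all tested genes were 22.3% higher and 24.9% lower in rxt3, and 15.1% higher and 17.2% lower in arid14.

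WRKY53, a regulator of defence and leaf senescence, had 71.8 and 74.7 in arid14, 759.5 and 708 in rxt3 and 77.5 and 116 in wild type. Both rxt3 libraries stood far above the other 4, and arid14 lay just below wild type (log2 difference -3.31 ± 0.31, SE, limma, adjusted p = 2.9e-06). WRKY46 had 39.3 and 48.8 in arid14, 347 and 361 in rxt3 and 122 and 129.9 in wild type, so wild type lay between the mutants (log2 difference -2.99 ± 0.34, SE, limma, adjusted p = 1.6e-05). WRKY40, a fast-induced repressor of defence, showed the same order, at 147 and 178 in arid14, 779 and 1085 in rxt3 and 283 and 399.6 in wild type (log2 difference -2.50 ± 0.24, SE, limma, adjusted p = 3.2e-06). WRKY33, which directs camalexin synthesis, stood at 876 and 1088 in arid14, 2904 and 3386 in rxt3 and 965 and 1210 in wild type (log2 difference -1.68 ± 0.16, SE, limma, adjusted p = 3.3e-06). ERF11 was lower in arid14 by 2.80 ± 0.24, and ERF5 by 2.13 ± 0.23 (SE, limma, adjusted p = 1.2e-06 and 8.3e-06). The zinc-finger gene CZF1 had 449 and 508 in arid14, 1481 and 1896 in rxt3 and 848 and 1030 in wild type (log2 difference -1.81 ± 0.15, SE, limma, adjusted p = 1.2e-06). STZ, also known as ZAT10, had 119 and 182 in arid14, 479.8 and 718 in rxt3 and 399 and 578 in wild type, with rxt3 near wild type and arid14 below both (log2 difference -1.99 ± 0.29, SE, limma, adjusted p = 0.0001). The 1 member higher in arid14 was TCH4, a xyloglucan endotransglucosylase of the cell wall, at 8003 and 11206 in arid14, 3201 and 4474 in rxt3 and 9538 and 9952 in wild type (log2 difference 1.32 ± 0.27, SE, limma, adjusted p = 0.0015). For TCH4 it was rxt3 that lay below wild type.

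The windows of 250 bases before WRKY53, WRKY33 and CZF1 are shown because these list members were lower in arid14 and hold the W-box TTGACC, the element bound by WRKY factors. The search covered both strands, and capitals mark a match, which reads GGTCAA where it lies on the other strand.
WRKY53 (chr4:12393983-12394232, minus strand): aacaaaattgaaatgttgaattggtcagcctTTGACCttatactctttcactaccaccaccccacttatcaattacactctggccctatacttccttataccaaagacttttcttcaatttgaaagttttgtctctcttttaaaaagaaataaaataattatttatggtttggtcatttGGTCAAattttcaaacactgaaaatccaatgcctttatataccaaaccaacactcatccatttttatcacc
WRKY33 (chr2:16107985-16108234, plus strand): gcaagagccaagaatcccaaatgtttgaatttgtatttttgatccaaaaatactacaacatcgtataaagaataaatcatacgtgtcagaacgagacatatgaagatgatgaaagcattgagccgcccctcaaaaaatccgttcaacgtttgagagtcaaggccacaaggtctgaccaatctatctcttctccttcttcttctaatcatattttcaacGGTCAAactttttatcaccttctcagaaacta
CZF1 (chr2:16771747-16771996, plus strand): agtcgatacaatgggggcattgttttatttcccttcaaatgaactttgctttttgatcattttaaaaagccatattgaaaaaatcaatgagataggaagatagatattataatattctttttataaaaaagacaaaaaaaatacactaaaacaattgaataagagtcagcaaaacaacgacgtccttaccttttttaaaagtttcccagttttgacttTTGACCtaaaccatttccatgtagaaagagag
Of the 23 windows of the list, 6 held a W-box (26.1%), against 12.2% of all tested genes, 15.8% of genes lower in arid14 by at least 1 and 11.3% of genes higher by at least 1. The 6 were CML38, WRKY33, WRKY53, SZF1, CZF1 and PP2C5, and PP2C5 was not called. The W-box was not the only motif above its background. The GCC-box was in 4 of the 23 windows (ZAT6, STZ, WRKY33 and ERF11), against 1.96% of all tested genes. The DRE core CCGAC was in 6 (against 12.8%) and the heat shock element GAANNTTC in 5 (against 9.36%). The evening element AAAATATCT and the G-box CACGTG were in 1 window each, against 2.39% and 7.34%. The GCC-box in the WRKY33 window is left in lower case. A match describes the letters of the window and not a bound site.

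**Figure D3:**
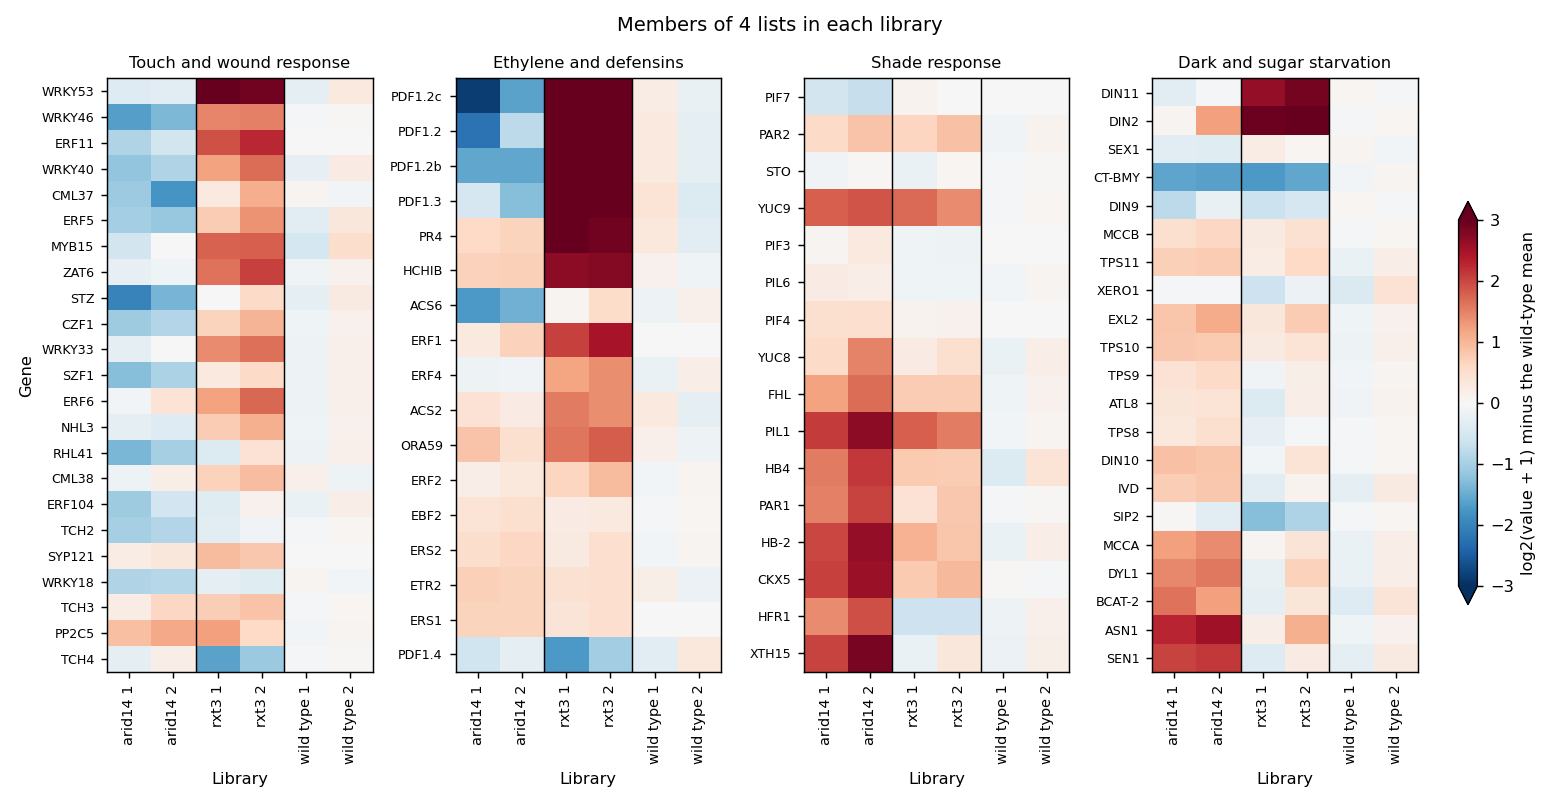
Each row is a tested member of 1 of 4 lists, with 1 member of the ethylene and defensin list not shown, and each column 1 library, and the colour gives log2(normalised value + 1) minus the mean of the 2 wild-type libraries, from -3 (blue) to 3 (red), with values beyond shown at the end of the scale. In touch and wound response the rxt3 columns are mostly red and the arid14 columns mostly pale or blue, while in shade response the arid14 columns are the redder ones.

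Salicylic acid and defence genes were also lower in arid14, 13 of 26 tested, with 1 higher and a median of -0.7. Over all tested genes 20.6% were lower and 21.9% higher. Without rxt3 library 1 or without arid14 library 2 the number lower fell to 8. SARD1 and CBP60G, related transcription factors that switch on salicylic acid synthesis, are on this list. SARD1 had 78.7 and 95.6 in arid14, 345 and 416 in rxt3 and 127 and 79.9 in wild type (log2 difference -2.11 ± 0.36, SE, limma, adjusted p = 0.00034), and CBP60G had 146 and 198 in arid14, 552 and 551 in rxt3 and 209 and 282 in wild type (log2 difference -1.69 ± 0.20, SE, limma, adjusted p = 2.2e-05). In both, arid14 overlapped or bordered wild type and rxt3 lay above. The synthesis enzyme gene ICS1, listed as EDS16, stood at 372 and 436 in arid14 and 622 and 722 in rxt3 (log2 difference -0.73 ± 0.14, SE, limma, adjusted p = 0.001). The output genes did not move as 1 group: PR1 had 1268 and 1149 in arid14, 1447 and 629 in rxt3 and 896 and 558 in wild type and was not called. PR2, listed as BGL2, had 533 and 334 in arid14, 3154 and 1050 in rxt3 and 899 and 1436 in wild type, with the rxt3 libraries far apart, and its difference of -2.11 became -1.31 without rxt3 library 1 and -2.90 without library 2 (limma, adjusted p = 0.0022, then 0.038 and 0.0003). WRKY62 was the member higher in arid14, at 21.7 and 20.9 in arid14, 0.97 and 0.986 in rxt3 and 9.96 and 0.998 in wild type. The wild-type libraries thus lay far apart, 1 of them near rxt3. The difference between the mutants rests on 43 reads in arid14 against 2 in rxt3, a ratio of 21.5 (95% exact interval 5.6 to 183, counting error only).

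Of 28 tested jasmonate genes 13 were lower and 5 higher in arid14, with a median of -0.37, where 20.6% of all tested genes were lower and 21.9% higher. The share higher was thus no larger than over all genes, and 3 were higher without arid14 library 2 or rxt3 library 1. Lower were lipoxygenases that start the pathway, such as LOX4, at 244 and 271 in arid14 and 703 and 883 in rxt3 (log2 difference -1.61 ± 0.15, SE, limma, adjusted p = 2.5e-06), and LOX2, at 6982 and 6842 in arid14 and 16470 and 11965 in rxt3 (log2 difference -1.02 ± 0.19, SE, limma, adjusted p = 0.00086). The allene oxide cyclase gene AOC3 was lower by 1.21 ± 0.12 (SE, limma, adjusted p = 5.5e-06), while AOC1, AOC2 and OPR3 were not called. Among the outputs, the storage protein VSP2 had 1141 and 1440 in arid14, 5209 and 3970 in rxt3 and 1022 and 771 in wild type, where rxt3 stood above both other genotypes (log2 difference -1.83 ± 0.21, SE, limma, adjusted p = 1.4e-05). The JAZ repressors were divided, with JAZ1 and JAZ5 lower and JAZ6, JAZ7, TIFY7 (JAZ9) and TIFY10B (JAZ2) higher in arid14. JAZ7 moved most, at 290.3 and 345 in arid14, 58.2 and 86.9 in rxt3 and 135 and 193 in wild type (log2 difference 2.14 ± 0.27, SE, limma, adjusted p = 3.1e-05). The calls of JAZ1, JAZ6 and TIFY7 were each lost when either of 2 libraries was left out (limma, adjusted p from 0.085 to 0.17). MYC2 was listed at 0 in all 4 libraries. Whether this reflects its RNA level or how reads were counted was not tested.

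Pigment and glucosinolate genes were also more often lower than higher in arid14, where 20.6% of all tested genes were lower and 21.9% higher. Of 19 tested anthocyanin and flavonoid genes 11 were lower and 1 higher in arid14, with a median of -1.29. The early step chalcone synthase, TT4, had 2933 and 2597 in arid14, 7570 and 6069 in rxt3 and 6060 and 4790 in wild type, so arid14 lay below wild type and rxt3 just above it (log2 difference -1.30 ± 0.14, SE, limma, adjusted p = 8.1e-06). The late genes were placed differently, closer to wild type in arid14 and far above it in rxt3. DFR, the enzyme that commits flavonoids to anthocyanin, had 199 and 235 in arid14, 1290 and 885 in rxt3 and 151 and 70.9 in wild type (log2 difference -2.30 ± 0.40, SE, limma, adjusted p = 0.00044), and LDOX, the next enzyme, had 116 and 138 in arid14, 984 and 693 in rxt3 and 133 and 61.9 in wild type (log2 difference -2.69 ± 0.40, SE, limma, adjusted p = 0.00013). The repressor MYBL2 was the member higher in arid14, by 0.36, a call lost without arid14 library 2 or rxt3 library 1 (limma, adjusted p = 0.14 and 0.32).

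Of 19 tested genes for indole glucosinolates and camalexin, 11 were lower and 2 higher, 1 without arid14 library 2. PAD3, the last enzyme of camalexin synthesis, had 133 and 168 in arid14, 624 and 506 in rxt3 and 189.9 and 145 in wild type (log2 difference -1.90 ± 0.31, SE, limma, adjusted p = 0.00025). CYP81F2, which modifies indole glucosinolates in the defence against fungi and aphids, had 191 and 206 in arid14, 423 and 429 in rxt3 and 99.4 and 89.9 in wild type (log2 difference -1.10 ± 0.15, SE, limma, adjusted p = 5.5e-05), with arid14 between wild type and rxt3. Aliphatic glucosinolate genes differed less: 8 of 19 were lower, 5 without rxt3 library 1, and the other members were not called. Their median was -0.08. Among 15 glucosinolate breakdown genes, 4 were higher and 7 lower. For each of these glucosinolate lists the shares over all tested genes were 21.9% higher and 20.6% lower. The myrosinases of leaves, TGG1 and TGG2, which cleave glucosinolates upon wounding, were higher in arid14, TGG2 at 21089 and 20108 in arid14, 10651 and 11295 in rxt3 and 16103 and 14423 in wild type (log2 difference 0.91 ± 0.07, SE, limma, adjusted p = 4.7e-07). BGLU18, a beta-glucosidase of endoplasmic reticulum bodies, was lower, at 4617 and 4844 in arid14, 14571 and 11105 in rxt3 and 3270 and 2120 in wild type (log2 difference -1.43 ± 0.19, SE, limma, adjusted p = 5.4e-05).

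Several other genes were named for the size of their difference. EXT3, an extensin that cross-links the cell wall, had 10808 and 8085 in arid14, 34947 and 35688 in rxt3 and 6495 and 6410 in wild type (log2 difference -1.92 ± 0.12, SE, limma, adjusted p = 1.7e-07). PRXCB, a peroxidase that makes reactive oxygen in defence, had 4138 and 3819 in arid14, 18897 and 15556 in rxt3 and 2926 and 2166 in wild type (log2 difference -2.11 ± 0.19, SE, limma, adjusted p = 2.8e-06). AT4G33720, which encodes a relative of PR1, had 500.2 and 393 in arid14, 8146 and 10560 in rxt3 and 464 and 343 in wild type (log2 difference -4.38 ± 0.21, SE, limma, adjusted p = 3.2e-08), a level in arid14 at 4.78% of rxt3. In these 3 genes both rxt3 libraries stood above the other 4. PGAZAT, a polygalacturonase of organ separation, had 5.89 and 8.96 in arid14, 265 and 286 in rxt3 and 4.97 and 6.99 in wild type, and the glutathione transferase GSTU3 had 23.57 and 38.8 in arid14, 522 and 850.2 in rxt3 and 32.8 and 12 in wild type. Both were low in arid14 and wild type alike, with log2 differences of -5.06 ± 0.85 and -4.42 ± 0.99 (SE, limma, adjusted p = 0.00032 and 0.0027).

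Root hair genes were lower in arid14, 11 of 18 tested, with the other 7 not called and a median of -0.53. Over all tested genes 20.6% were lower. The number lower was 6 without arid14 library 2 and 7 without rxt3 library 2. COW1, a lipid transfer protein needed for hair growth, had 292 and 264 in arid14, 466 and 493 in rxt3 and 215 and 226 in wild type (log2 difference -0.78 ± 0.11, SE, limma, adjusted p = 7.9e-05). The proline-rich wall protein PRP3 had 1196 and 909 in arid14, 1624 and 1798 in rxt3 and 834 and 994 in wild type (log2 difference -0.71 ± 0.12, SE, limma, adjusted p = 0.00037). Relative to wild type 16 of the 18 were higher in rxt3, and 3 were higher in arid14. Over all tested genes 22.3% were higher than wild type in rxt3 and 15.1% in arid14, so the number in arid14 was near the background. Markers of root tissue in general gave 2 of 15 higher in arid14 and 13 not called, where 21.9% of all tested genes were higher. Their summed value was 3331 and 3083 in arid14, 3011 and 3089 in rxt3 and 3126 and 3200 in wild type, so the groups overlapped. The 2 called were GL2 and JKD. GL2 had 273 and 235 in arid14, 171 and 145 in rxt3 and 180 and 171 in wild type (log2 difference 0.68 ± 0.12, SE, limma, adjusted p = 0.00059). JKD had 473 and 513 in arid14, 358 and 385 in rxt3 and 368 and 344 in wild type (log2 difference 0.41 ± 0.10, SE, limma, adjusted p = 0.0035). The endodermis genes SCR (866 and 830.2 in arid14 and 802 and 764 in rxt3) and CASP1 (533 and 454 in arid14 and 534 and 566 in rxt3) were not called.

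In the opposite direction, shade-response genes were higher in arid14. These genes are induced when phytochrome is inactivated by shade or darkness, through PIF transcription factors. Of 16 tested members 11 were higher and 1 lower, with a median of 0.68, where 21.9% of all tested genes were higher. HFR1, a feedback inhibitor of PIFs, had 1599 and 2279 in arid14, 388 and 389 in rxt3 and 542 and 660.4 in wild type. The arid14 libraries lay above wild type and the rxt3 libraries below it (log2 difference 2.29 ± 0.16, SE, limma, adjusted p = 2.9e-07). XTH15, a wall-loosening enzyme, had 1352 and 2374 in arid14, 288 and 416 in rxt3 and 291 and 375 in wild type (log2 difference 2.37 ± 0.24, SE, limma, adjusted p = 6.2e-06). The homeobox factor ATHB2, listed as HB-2, had 3737 and 5790 in arid14, 1909 and 1669 in rxt3 and 807 and 1077 in wild type (log2 difference 1.38 ± 0.17, SE, limma, adjusted p = 2.9e-05), and CKX5, which degrades cytokinin, had 273 and 393 in arid14, 113 and 127 in rxt3 and 66.6 and 62.9 in wild type (log2 difference 1.44 ± 0.20, SE, limma, adjusted p = 8.4e-05). In HB-2 and CKX5 both mutants lay above wild type, arid14 the higher. PIF4 stood at 3063 and 3086 in arid14 and 2363 and 2368 in rxt3 and was higher by 0.38 ± 0.05 (SE, limma, adjusted p = 5.3e-05), while PIF7 was lower by 0.66 ± 0.07 (SE, limma, adjusted p = 1.2e-05). The median of the list fell to 0.41 without arid14 library 2, whose values were the higher of the pair for HFR1, XTH15, HB-2 and CKX5.

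Auxin-response genes shifted with them. Of 29 tested members 20 were higher in arid14 and 1 lower, with a median of 0.58, where 21.9% of all tested genes were higher. When only the 4 libraries were fitted, 12 were higher. IAA29, a repressor of auxin response that shade induces, had 1031 and 1279 in arid14, 343 and 307 in rxt3 and 139 and 176 in wild type (log2 difference 1.82 ± 0.15, SE, limma, adjusted p = 1.1e-06). IAA19, of the same family, had 737 and 1210 in arid14, 448 and 511 in rxt3 and 231 and 315 in wild type (log2 difference 0.98 ± 0.20, SE, limma, adjusted p = 0.0015), and the growth gene SAUR22 had 464 and 542 in arid14, 159 and 203 in rxt3 and 132 and 174 in wild type (log2 difference 1.47 ± 0.17, SE, limma, adjusted p = 1.4e-05). The auxin-conjugating enzyme GH3.5, listed as WES1, had 2394 and 3460 in arid14, 1306 and 1468 in rxt3 and 609 and 742 in wild type (log2 difference 1.06 ± 0.14, SE, limma, adjusted p = 5.8e-05). Without arid14 library 2 the difference of IAA19 was 0.62. In IAA29, IAA19 and WES1 arid14 was highest and rxt3 lay between it and wild type. AXR3, known also as IAA17, was the member that was lower in arid14, at 1020 and 1106 in arid14, 1617 and 1702 in rxt3 and 1457 and 1418 in wild type (log2 difference -0.64 ± 0.05, SE, limma, adjusted p = 9.8e-07). The SAUR19 to SAUR24 genes are close copies that can share reads.

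Dark and sugar-starvation genes were higher in arid14 in 15 of 21 tested cases and lower in 3, with a median of 0.47. The shares over all tested genes were 21.9% higher and 20.6% lower. ASN1, which makes asparagine for nitrogen storage when sugar is short, had 19456 and 23379 in arid14, 4593 and 8381 in rxt3 and 3697 and 4356 in wild type. It was also among the 5 genes higher in arid14 by the most in mean value (log2 difference 1.78 ± 0.20, SE, limma, adjusted p = 1.3e-05). SEN1, also called DIN1, had 6638 and 7158 in arid14, 1245 and 1935 in rxt3 and 1363 and 1962 in wild type (log2 difference 2.15 ± 0.18, SE, limma, adjusted p = 1.4e-06), and both arid14 libraries stood above the other 4, which overlapped. MCCA and IVD, enzymes of branched-chain amino acid breakdown, were both higher, MCCA at 1984 and 2271 in arid14, 897 and 1109 in rxt3 and 737 and 983 in wild type (log2 difference 1.09 ± 0.12, SE, limma, adjusted p = 1.2e-05) and IVD at 2025 and 2151 in arid14, 967 and 1303 in rxt3 and 1003 and 1481 in wild type (log2 difference 0.89 ± 0.16, SE, limma, adjusted p = 0.00056). DYL1 had 1760 and 1942 in arid14, 559 and 1054 in rxt3 and 569.6 and 743 in wild type (log2 difference 1.27 ± 0.20, SE, limma, adjusted p = 0.00021), a difference of 0.81 without rxt3 library 1. The 3 members lower in arid14 were DIN2, DIN11 and SEX1. DIN11 had 40.3 and 48.8 in arid14, 319 and 380.1 in rxt3 and 52.7 and 49 in wild type (log2 difference -2.94 ± 0.24, SE, limma, adjusted p = 8.9e-07), so in this gene rxt3 was the high genotype. Outside it, the hexose transporter STP1 had 13397 and 14521 in arid14, 5603 and 7644 in rxt3 and 5142 and 5551 in wild type (log2 difference 1.09 ± 0.14, SE, limma, adjusted p = 3.1e-05).

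All 7 tested genes of the triterpene list were higher in arid14, with a median of 1.24, and 4 were called without rxt3 library 2. The list holds genes of the marneral and thalianol clusters, runs of neighbouring genes for root triterpenes, and the baruol synthase gene BARS1 on chromosome 4. Marneral synthase, MRN1, had 614 and 667 in arid14, 128 and 40.3 in rxt3 and 231 and 366 in wild type, with a difference of 3.14 ± 0.44 (SE, limma, adjusted p = 8.8e-05) that became 3.96 without rxt3 library 1 and 2.31 without library 2. CYP705A5 of the thalianol cluster had 688 and 657 in arid14, 318 and 202 in rxt3 and 367 and 554 in wild type (log2 difference 1.4 ± 0.26, SE, limma, adjusted p = 0.00062). Relative to wild type 5 of the 7 were lower in rxt3, and in arid14 they were not called. Over all tested genes 24.9% were lower than wild type in rxt3, and 21.9% were higher in arid14 than in rxt3. Among genes with a mean value of at least 100 in arid14, AT4G16540 had the largest log2 difference of those higher in arid14 without overlap. It is annotated as a small heat shock protein family member and stood at 218 and 168 in arid14, 17.5 and 13.8 in rxt3 and 65.6 and 64.9 in wild type (log2 difference 3.54 ± 0.23, SE, limma, adjusted p = 2.2e-07). The oxysterol-binding protein gene ORP4C had 282 and 401 in arid14, 36.9 and 42.5 in rxt3 and 148 and 279 in wild type (log2 difference 3.06 ± 0.22, SE, limma, adjusted p = 4.1e-07). PORA, which makes chlorophyllide in the light from a precursor built up in the dark, had 356 and 340.4 in arid14, 35.9 and 57.3 in rxt3 and 74.6 and 59.9 in wild type (log2 difference 2.91 ± 0.25, SE, limma, adjusted p = 1.5e-06). ST2A, a sulfotransferase acting on a jasmonate derivative, had 665 and 1467 in arid14, 182 and 148 in rxt3 and 161 and 253 in wild type (log2 difference 2.58 ± 0.32, SE, limma, adjusted p = 2.9e-05). For PORA and ST2A the arid14 libraries stood above both other genotypes, while for AT4G16540 and ORP4C rxt3 was the lowest. AT5G01320, annotated as a pyruvate decarboxylase family member, was the gene with 0 reads in both rxt3 libraries and a value of at least 20 in both arid14 libraries. It had 27.6 and 20.9 in arid14, 0 in both libraries of rxt3 and 21.9 and 25 in wild type, at least 8.17-fold higher in arid14 against a floor of 3 reads per library, and no gene met the same rule with the mutants exchanged.

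Flowering-time genes gave 7 higher and 5 lower of 22 tested, where 21.9% of all tested genes were higher and 20.6% lower, so the number lower was near the background. SOC1, the integrator that promotes flowering, is listed as AGL20 and had 963 and 991 in arid14, 288 and 404 in rxt3 and 1074 and 1052 in wild type (log2 difference 1.51 ± 0.12, SE, limma, adjusted p = 9.9e-07). MAF5, a repressor of the FLC family, had 5.9 and 5.97 in arid14, 79.6 and 107 in rxt3 and 10.9 and 13 in wild type (log2 difference -3.75 ± 0.30, SE, limma, adjusted p = 9.7e-07). In both genes arid14 lay closer to wild type, and rxt3 stood apart, with less SOC1 and more MAF5. SNZ, an AP2-type repressor, had 188 and 199 in arid14, 71 and 65.1 in rxt3 and 345 and 315 in wild type (log2 difference 1.49 ± 0.12, SE, limma, adjusted p = 9.7e-07), lower than wild type in both mutants. FLC itself had between 0 and 3.95 in the 4 libraries and was not tested, and FT was not called, at 10.8 and 16.9 in arid14 and 17.55 and 9.85 in rxt3.

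The clock list gave 8 higher and 6 lower of 24, against the same 21.9% and 20.6% over all tested genes. The morning genes LHY and CCA1 did not separate the mutants: LHY had 3379 and 3279 in arid14, 3517 and 3448 in rxt3 and 6658 and 7031 in wild type (log2 difference -0.07 ± 0.06, SE, limma, adjusted p = 0.38) and CCA1 had 3927 and 4130 in arid14, 3481 and 3908 in rxt3 and 6706 and 7167 in wild type (0.13 ± 0.07, adjusted p = 0.14). Both mutants lay below wild type in these genes. RVE1, a related factor that links the clock to auxin, had 915 and 1036 in arid14, 347 and 499 in rxt3 and 1836 and 1991 in wild type and did separate them (log2 difference 1.23 ± 0.14, SE, limma, adjusted p = 1.3e-05). GI, an evening gene, had 236 and 245 in arid14, 449 and 441 in rxt3 and 309 and 339 in wild type, highest in rxt3 (log2 difference -0.89 ± 0.11, SE, limma, adjusted p = 4e-05).

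Photosynthesis genes differed little, with 7 of 31 higher and 3 lower and a median of 0.07, and 2 were higher without rxt3 library 1, 4 without either arid14 library. The 3 lower were not called without arid14 library 2 or rxt3 library 1, and 1 was called without rxt3 library 2. The 4 libraries fitted alone gave 1 higher and 1 lower. In the main fit 32.3% of the list was called, against 42.5% of all tested genes. Over all tested genes 21.9% were higher and 20.6% lower, so the number higher was near the background and the number lower below it. The higher genes include LHCA4, higher in arid14 by the most in mean value. This gene, for an antenna protein of photosystem I, had 131765 and 132852 in arid14, 104750 and 110501 in rxt3 and 96986 and 94126 in wild type, a difference of 0.30 ± 0.08 (SE, limma, adjusted p = 0.0094, and 0.06 without rxt3 library 1). The carbonic anhydrase gene CA2 had 53409 and 54042 in arid14, 33529 and 35316 in rxt3 and 53554 and 53402 in wild type (log2 difference 0.64 ± 0.08, SE, limma, adjusted p = 2.8e-05), and here rxt3 was low and arid14 overlapped wild type. RBCS3B, a Rubisco small subunit, was lower in arid14, at 70698 and 60528 in arid14 and 79728 and 82314 in rxt3 (limma, adjusted p = 0.023), and lost its call without arid14 library 2 and without either rxt3 library (adjusted p from 0.057 to 0.22). The chlorophyll-binding and Rubisco small-subunit genes have close copies that can share reads.

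**Figure D4:**
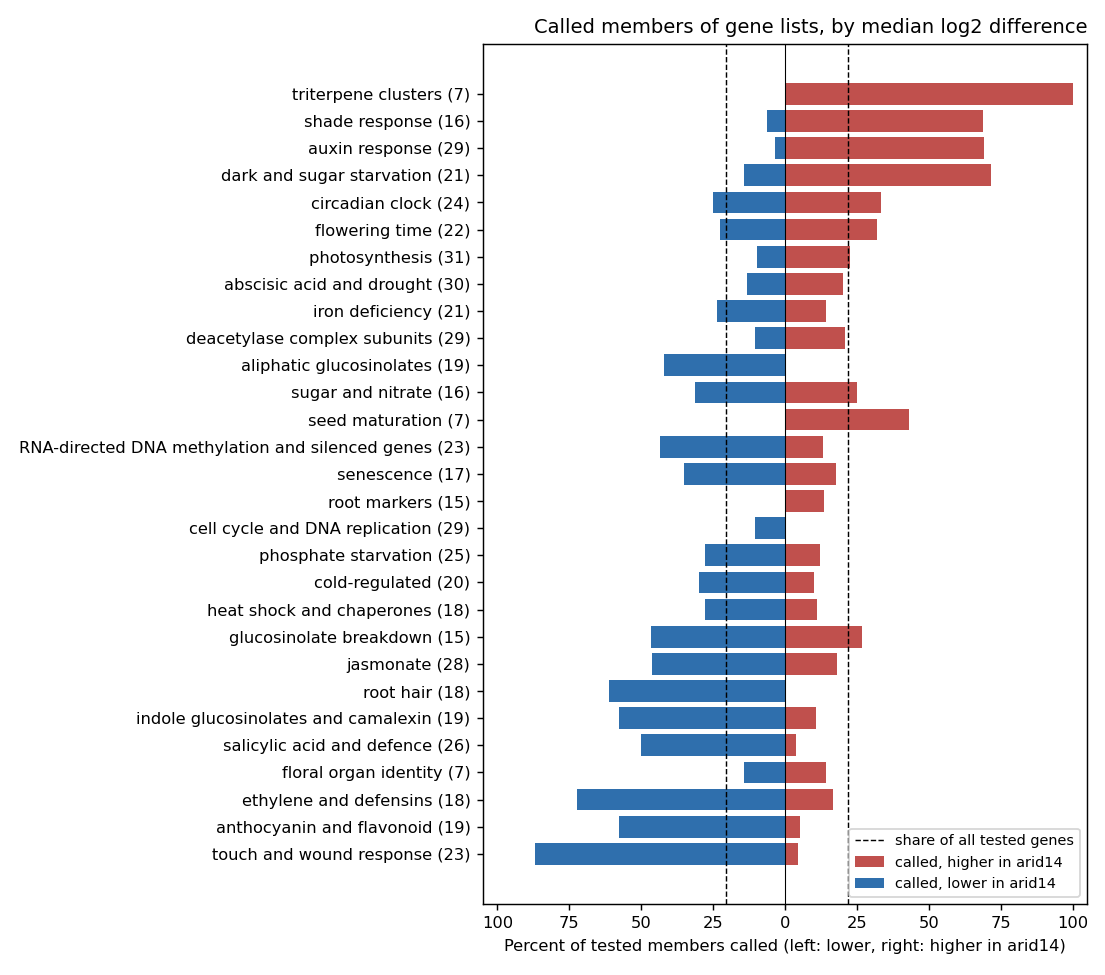
Each bar gives the percent of a list's tested members that were called, red to the right for higher in arid14 and blue to the left for lower, with the number tested in brackets and the lists ordered by their median log2 difference. Dashed lines mark the shares over all tested genes, 21.9% higher and 20.6% lower. Triterpene, shade, auxin and dark lists reach farthest right, and touch and wound, ethylene and root hair lists farthest left.

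Most of the remaining lists showed shares of calls below the 42.5% of all tested genes. Over all tested genes 21.9% were called higher and 20.6% lower. Cell cycle and DNA replication genes gave 3 of 29 lower and 26 not called, the lowest share of calls of the 29 lists at 10.3%, and 1 was lower without arid14 library 2 or rxt3 library 1. Heat shock genes gave 2 higher and 5 lower of 18, with 2 lower without arid14 library 2 or rxt3 library 1. The 2 higher became 1 without either arid14 library and lost their calls without rxt3 library 1. HSP70 had 1162 and 820.1 in arid14, 1197 and 1149 in rxt3 and 2543 and 2822 in wild type, low in both mutants and not called between them. Cold genes gave 2 higher and 6 lower of 20, which is 40% called against 42.5% over all tested genes. Their 2 higher became 1 without rxt3 library 2 and were not called without arid14 library 1. Abscisic acid genes gave 6 higher and 4 lower of 30, with 2 lower whichever library was left out. Some abscisic acid genes varied widely within arid14. LTI65, called higher in arid14, had 691 and 120.2 in arid14, 102 and 33.4 in rxt3 and 464 and 566 in wild type. Its difference of 2.28 was 1.02 without arid14 library 1 and 1.48 without rxt3 library 2, and its call was lost in both cases. The difference was 3.54 without arid14 library 2 and 3.07 without rxt3 library 1. Phosphate starvation genes gave 3 higher and 7 lower of 25, and iron genes 3 and 5 of 21. Their shares of calls, 40% and 38.1%, were near that of all tested genes. Senescence genes gave 3 and 6 of 17, and sugar and nitrate genes 4 and 5 of 16, with larger shares of 52.9% and 56.2%. Without arid14 library 1 the iron genes higher were 1, without rxt3 library 2 they lost their calls, and without rxt3 library 1 they were 5. The iron genes lower were 2 without arid14 library 2 and 3 without rxt3 library 1. Phosphate genes gave 4 lower without rxt3 library 2. RNA-directed DNA methylation genes gave 3 higher and 10 lower of 23, with 56.5% called. NRPD1B, the largest subunit of RNA polymerase V, had 199 and 197 in arid14, 368 and 376 in rxt3 and 274 and 257 in wild type (log2 difference -0.91 ± 0.09, SE, limma, adjusted p = 3.5e-06). The 3 higher became 1 without either arid14 library and lost their calls in the fit of the 4 libraries alone and with DESeq2. The 10 lower fell to 3 without rxt3 library 1, to 6 without rxt3 library 2 and to 5 without arid14 library 2.

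Few seed and floral genes could be tested. Over all tested genes 21.9% were higher in arid14 and 20.6% lower. Of 21 seed maturation genes 7 passed the filter, and 3 were higher in arid14, with 2 lower without rxt3 library 2. Without the filter, 4 of the 21 were higher and 2 lower, with a median of -0.84. In that setting 4459 of 26932 genes were higher and 4129 lower. The list summed to 214.5 and 255.9 in arid14, 368.5 and 89.6 in rxt3 and 161 and 264.8 in wild type. The mutants thus overlapped, and the storage and oleosin genes named above were highest in rxt3 library 1. DOG1, a regulator of seed dormancy, had 63 and 72.7 in arid14, 5.81 and 9.88 in rxt3 and 27.8 and 26 in wild type (log2 difference 3.0 ± 0.29, SE, limma, adjusted p = 4.7e-06). M10 had 36 reads in arid14 and 0 in rxt3, at least 6-fold higher in arid14 against 3 reads per library, and M17 had 97.4 and 122 in arid14, 12.5 and 29.7 in rxt3 and 68.5 and 175 in wild type (log2 difference 2.43 ± 0.40, SE, limma, adjusted p = 0.00027), moving to 1.84 without rxt3 library 1 and 3.02 without library 2. Of 12 floral organ identity genes 7 were tested, 1 was higher and 1 lower, each lost with 1 or more of the libraries left out, with summed values of 337.5 and 378.3 in arid14 and 338.3 and 355.4 in rxt3, which overlapped.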

How the data were processed

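RNA-seq of 16 libraries, 2 for each of 8 genotypes, was aligned with HISAT2 2.1.0 to TAIR10 and counted with featureCounts, per the submitters' processing notes, which also name edgeR. Their options and the treatment of strand and of reads matching several genes are not given in the sources used here. The values the authors deposited are a normalised signal per gene. They are edgeR pseudo-counts, reads adjusted by quantiles within each genotype to a common library size. Inverting that adjustment recovered whole reads for 100% of values (relative tolerance 1e-06). Apart from the read counts printed here, they were used only for edgeR and DESeq2.

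Tested genes reached 10 or more in no fewer than 2 libraries, and the test ran on log2(value + 1) with limma 3.58.1 (trend, R 4.3.3), fitted to all 16 libraries with Benjamini-Hochberg adjustment over 20846 genes. Alternatives were edgeR 4.0.16, DESeq2 1.42.0, a fit of the 4 libraries alone, a replicate block, other filters, pseudocounts and size factors, and each library left out. The code was tested on simulated data. Gene names, coordinates and sequences came from TAIR10.1 (RefSeq), which held all 32548 identifiers.

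Genes were named by rule: the mutated genes and their neighbours, in each direction the 12 largest log2 differences among called genes with a mean of at least 100 in the higher mutant and the 5 largest differences in mean value, both without overlap between the mutants, genes at 0 in 1 mutant and at least 20 in the other, and up to 3 called members per list and direction. Further list members were named for their role after their values were seen. The members and lists were chosen with earlier results of these data known. Results for 2 genes are not reported here.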

Additional observations from a re-analysis of the deposited data

How the results depend on the processing

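The main counts of 4563 genes higher and 4291 lower in arid14 than in rxt3 were within 1.5 times of the values given by median-of-ratios scaling, edgeR, other filters, other pseudocounts and the replicate block. They moved to 565 and 829 with a log2 difference of at least 1. The number higher moved to 2986 when the 4 libraries were fitted alone and to 2953 with DESeq2, against 3039 and 3261 lower. With 1 library left out, genes higher ranged from 3298 to 3893 and lower from 3099 to 3606. The direction with more calls turned under median-of-ratios scaling (4299 higher, 4493 lower), edgeR (4218 and 4695), DESeq2 and the 4-library fit, and the cause was not tested. Genes higher in arid14 than in wild type, 3143, became 2015 with DESeq2 and ranged from 2083 without arid14 library 2 to 2349 with 1 library left out. The labels do not say that replicate numbers pair libraries. With the replicate block 4684 genes were higher and 4413 lower, and the deviations of same-numbered arid14 and rxt3 libraries correlated at 0.119 across genes.

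Of 189 called genes named or drawn by the rule, none changed direction under these alternatives; 32 lost the call in the 4-library fit, 20 with DESeq2, 6 with edgeR and between 22 and 33 with 1 library left out. The rule drew most of these genes because they were called, which left little room for a change of direction among them. Reversals were met in genes that were not called. UBC6 became -0.01 under median-of-ratios scaling, edgeR and DESeq2, and ranged from -0.06 to 0.07 with 1 library left out. MPK12 ranged from -0.01 to 0.11 and SLG1 from -0.2 to 0.17. FT was -0.00 with edgeR and ranged from -0.35 to 0.42, OPR3 from -0.00 to 0.34, PR1 from -0.26 to 0.94 and HDA6 from -0.13 to 0.05. Depth limits genes near the filter of 10.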
